A study of Mus musculus with 4 samples.

Results

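The 10 genes described here make, pass on or limit the nitric oxide signal, and they were measured in the lungs of Fgf8 hypomorph mouse embryos and their wild type littermates. They were chosen by name: every spot that was not a control and that the array files assign to Nos1, Nos3, Gucy1a3, Gucy1b3, Pde5a, Prkg1, Arg1, Arg2, Ass1 or Ddah1 was taken, with all probes kept. These are 10 of the 27745 gene names in the files, read by 20 probes. The study compared lungs at E18.5, the last days before birth, of Fgf8+/+ controls and of Fgf8H/- mutants, in which the secreted growth factor Fgf8 is reduced but not lost. Both genotypes shared a mixed strain background, written c57nl7/sv129 in the labels. RNA of 3 lungs of a genotype was pooled for each sample, and each of 4 two-colour arrays set 1 wild type pool in Cy3 against 1 mutant pool in Cy5, so n = 4 pools per genotype. Lobes were taken free of large airways and vessels.

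Nitric oxide is made from arginine by the nitric oxide synthases and diffuses from the endothelium into neighbouring smooth muscle. There it binds soluble guanylate cyclase, a dimer of an alpha and a beta subunit, which makes cyclic GMP (cGMP). The kinase that cGMP switches on relaxes the muscle, phosphodiesterase 5 breaks cGMP down, and in the lung this chain opens the pulmonary vessels around birth. Arginases compete with the synthases for arginine, argininosuccinate synthase helps to rebuild arginine from citrulline, and Ddah1 breaks down methylated arginines that inhibit the synthases.

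All values below are log2 ratios of hypomorph over wild type on an array, or normalized log2 signals of 1 genotype, and means are given ± SD. The number of arrays limits the precision. No array had the dyes swapped, so dye and genotype cannot be told apart for any probe. Per array, 32491 to 33744 of 43379 spots were well above background in the wild type and 32731 to 34519 in the hypomorph. The ratios of the arrays correlated across probes with r between 0.51 and 0.76. The single Fgf8 probe tested gave -0.18 ± 0.11 (limma, adjusted p = 0.0571), and its place with respect to the mutated sequence is not known here. Of the lung epithelium markers, 5 of 7 were measured, including Sftpb and Nkx2-1, while no probe of Sftpc or Scgb1a1 passed the filter.

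Of the 20 probes, 18 were bright enough to test. In the hypomorph 10 of them were lower and 1 was higher (limma, Benjamini-Hochberg adjusted p under 0.05 over all 29950 probes), against 12.2% lower and 12.7% higher of all probes tested, and 24.9% in either direction. The median log2 ratio was -0.25 over the 18 probes and -0.0045 over all probes. Of the 18 mean ratios, 16 lay below 0, and 11 probes were below 0 on all 4 arrays. Read from the brightest probe of each gene, 5 of 9 tested genes were lower and 1 was higher, against 13.0% and 13.6% of all 20578 genes. Probes of 1 gene are not independent of each other, and the 3 Gucy1b3 and 3 Prkg1 probes alone make up 6 of the 10 lower calls. Arg1 and the brightest Prkg1 probe passed under all 22 alternative ways of processing the data. These are not all separate checks. Normalizing brightness between arrays (Aquantile) left the ratios as reported, and the deposited series table repeated the processed signals.

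**Figure D1:**
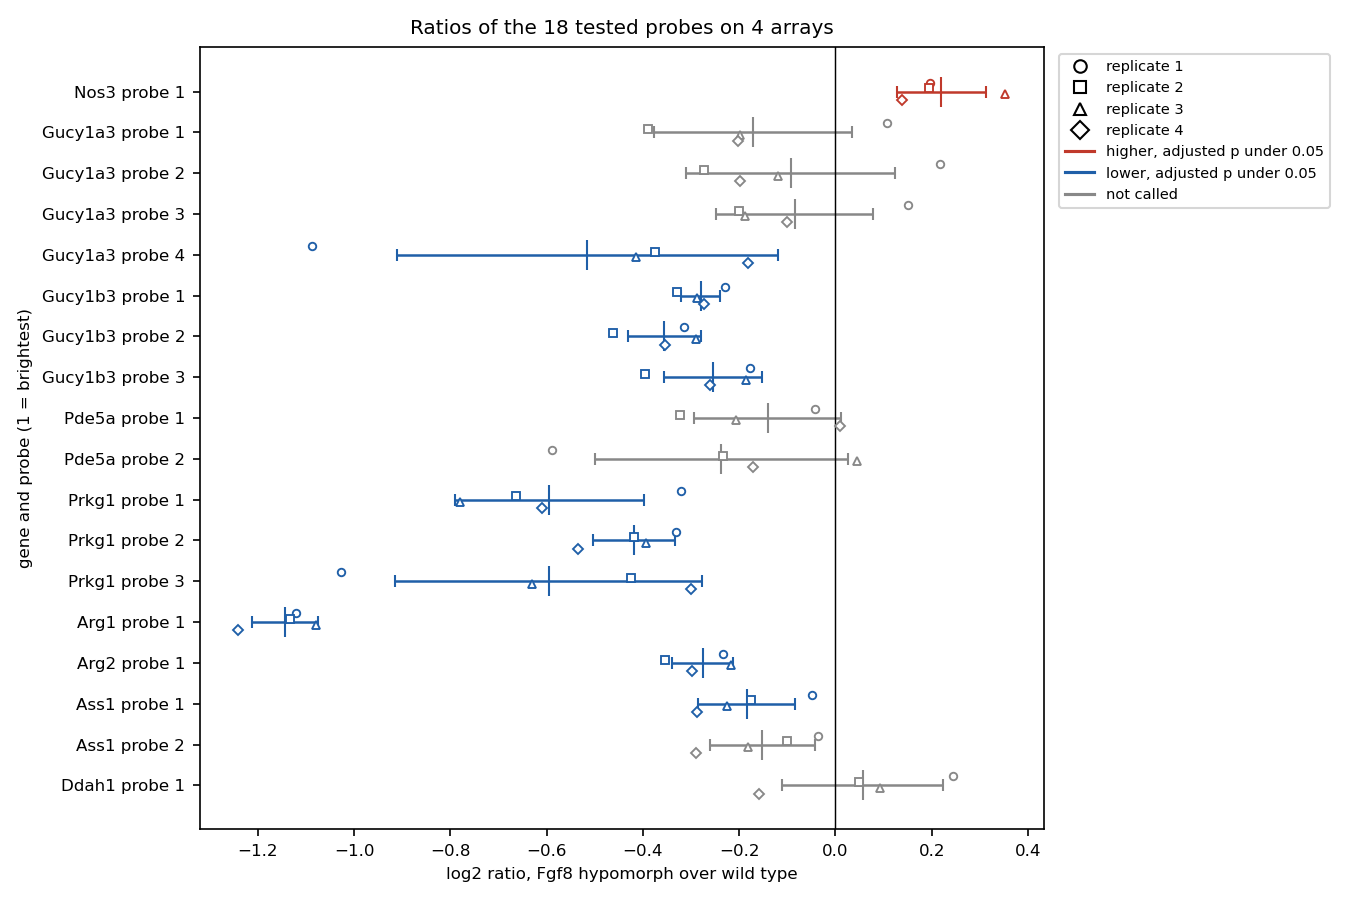
Log2 ratio of hypomorph over wild type for the 18 tested probes, with 1 symbol per array, a vertical tick at the mean and a bar of 1 SD to each side. Arg1 lies far left with 4 arrays between -1.24 and -1.08, and Nos3 is the one called probe to the right of 0. Gucy1a3 probes 1 to 3 have replicate 1 on the other side of 0 from the other arrays. With each array centred on its median, Gucy1b3 probe 1 and Ass1 probe 1 turn to 0.10 and 0.09.

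The synthases were read by 10 spots each on every array. Nos1, the neuronal synthase, was well above background on none of its 40 spots, in wild type or hypomorph. Its wild type spots had a median raw signal between 47.0 and 49.9 over a local background between 33.3 and 36.5, and it was not tested. Its probe lies at chr5:118213855-118213914 in mouse build mm8, the build of all probe positions here.

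Nos3, the endothelial synthase, was well above background on all 40 spots in both genotypes. Its probe lies at chr5:23893883-23893942. The log2 ratios were 0.20, 0.19, 0.35 and 0.14 on arrays 1 to 4, all above 0 and highest on array 3. The signals were 10.68, 10.65, 10.85 and 10.88 in the wild type pools and 10.88, 10.84, 11.20 and 11.01 in the hypomorph pools, so the genotypes overlapped between arrays although the hypomorph was brighter on each. The mean was 0.22 ± 0.09 (n = 4), 1.17-fold higher, with a 95% interval from 0.10 to 0.34 (limma, adjusted p = 0.0270). The difference missed the threshold without replicate 2 (adjusted p = 0.101) and without replicate 3 (0.102).

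The repeated spots separate the error of 1 spot from the spread between arrays, in which pools and arrays cannot be told apart. Of the 40 Nos3 spots, 38 were free of outlier marks, and all 38 had a ratio above 0, from 0.09 to 0.46. Within an array their SD was between 0.027 and 0.041, which is smaller than the SD of 0.09 between arrays. Spots of an array share their 2 RNA pools and were averaged before the test.

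**Figure D2:**
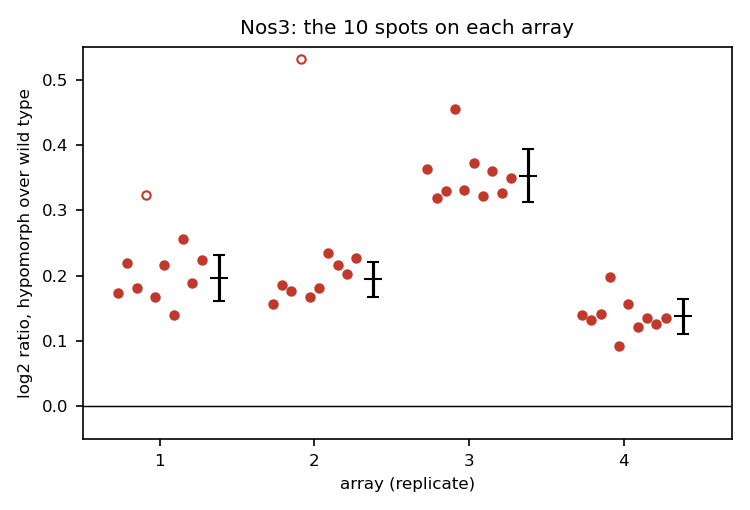
Log2 ratio of hypomorph over wild type of each of the 10 Nos3 spots on the 4 arrays. Filled points were kept, open points carried an outlier mark, and the bars show the mean and SD of the kept spots. The spots of each array lie close together, and array 3 stands above the others.

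Gucy1b3 encodes the beta subunit of soluble guanylate cyclase, now named Gucy1b1. In the hypomorph all 3 of its probes were lower, but with median centring of each array in place of loess they were at 0.10, -0.07 and -0.05 and none passed. The brightest probe, at chr3:82118147-82118206, had signals of 14.20, 14.13, 14.09 and 14.20 in the wild type pools and 13.97, 13.80, 13.80 and 13.92 in the hypomorph pools, with no overlap. Its ratios were -0.23, -0.33, -0.29 and -0.27, a mean of -0.28 ± 0.04 (n = 4), 1.21-fold lower (limma, adjusted p = 0.00793), and without replicate 2 the adjusted p was 0.0558. The 4 ratios of this probe lay close together. Probe 2 gave -0.31, -0.46, -0.29 and -0.35, a mean of -0.36 ± 0.08 (adjusted p = 0.00608), again without overlap of the signals. Probe 3 gave -0.18, -0.40, -0.18 and -0.26, a mean of -0.25 ± 0.10 (adjusted p = 0.0201), its wild type pool of replicate 4 was brighter than the other 3, and the call was lost without any 1 of replicates 2, 3 and 4 (adjusted p between 0.0608 and 0.0873). Across all 18 tested probes, 4 had signals that did not overlap between the genotypes, against 15.5% of all probes, and Gucy1b3 supplies a pair of them.

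Gucy1a3 encodes the alpha subunit that pairs with it, now named Gucy1a1, and its probes disagreed. Its probes 1 to 3 lie within a few kilobases of each other, the brightest at chr3:82180557-82180616, and the fourth is assigned to a cDNA clone 12.5 kb away. The brightest gave 0.11, -0.39, -0.20 and -0.20, a mean of -0.17 ± 0.21 (limma, adjusted p = 0.163). Probes 2 and 3 averaged -0.09 ± 0.22 (0.440) and -0.08 ± 0.16 (0.389). On these 3 probes replicate 1 was above 0 and the other 3 arrays were below. Without replicate 1 all 3 were lower, at -0.26, -0.20 and -0.16 (adjusted p = 0.0181, 0.0310 and 0.0443). With median centring of all 4 arrays they were instead at 0.25, 0.25 and 0.18, with no call. The clone probe went the opposite way in replicate 1, at -1.09, -0.38, -0.41 and -0.18. Its mean of -0.52 ± 0.40 passed narrowly (adjusted p = 0.0446) and did not pass without any 1 of replicates 2, 3 and 4 (0.0520 to 0.121). The alpha and beta genes are neighbours, with their brightest probes 62.4 kb apart on chromosome 3.

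Since the beta subunit and Prkg1 were lower on several probes each, their promoters are shown, from RefSeq sequence of build GRCm38.p6, 250 bases before to 50 after the start, 5′ to 3′ on the gene's strand. Of the 10 genes, 7 had an entry, with 9 start sites, and Nos3, Arg1 and Arg2 had none. Capitals mark the GC box GGGCGG or its complement CCGCCC, searched on both strands. The Gucy1b1 window is chr3:82074662-82074961, minus strand, and the Prkg1 windows are chr19:31764984-31765283 and chr19:31664321-31664620, both minus strand.
Gucy1b1: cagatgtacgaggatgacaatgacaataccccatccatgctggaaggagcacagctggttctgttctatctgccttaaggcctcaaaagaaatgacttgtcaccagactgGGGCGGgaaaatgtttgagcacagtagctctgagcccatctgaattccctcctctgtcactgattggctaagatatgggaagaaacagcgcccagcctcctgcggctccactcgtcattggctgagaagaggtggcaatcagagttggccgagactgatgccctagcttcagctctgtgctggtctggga
Prkg1 first start: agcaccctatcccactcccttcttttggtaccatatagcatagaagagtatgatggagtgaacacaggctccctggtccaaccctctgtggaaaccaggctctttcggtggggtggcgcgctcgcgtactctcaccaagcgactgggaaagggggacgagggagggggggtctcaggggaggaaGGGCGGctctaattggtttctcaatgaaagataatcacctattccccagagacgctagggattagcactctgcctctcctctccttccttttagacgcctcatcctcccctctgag
Prkg1 second start: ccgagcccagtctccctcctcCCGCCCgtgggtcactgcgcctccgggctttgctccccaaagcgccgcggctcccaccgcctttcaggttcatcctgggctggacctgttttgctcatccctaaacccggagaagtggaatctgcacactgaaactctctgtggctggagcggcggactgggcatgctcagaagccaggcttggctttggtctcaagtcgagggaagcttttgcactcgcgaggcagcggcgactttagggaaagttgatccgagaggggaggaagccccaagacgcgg
Each holds 1 GC box, which begins at -140, -66 and -229 from the start. The box is in 6 of the 9 windows, and in 35.7% of 32851 RefSeq mouse promoter windows of this length. TATAAA was in none of the 9 and in 13.6% of all windows. The CArG box, which serum response factor binds in smooth muscle genes, was in none of the 9 and in 1.63% of all. The share of G and C was 52.3%, 55.3% and 62.3% in the windows shown, against a median of 52.7% over all.

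Pde5a encodes phosphodiesterase 5, the enzyme that sildenafil inhibits. Its brightest probe, whose position in the files spans chr3:122831643-122833030, gave -0.04, -0.32, -0.21 and 0.01, a mean of -0.14 ± 0.15 (limma, adjusted p = 0.157). A clone probe 63.7 kb away gave -0.59, -0.23, 0.04 and -0.17, a mean of -0.24 ± 0.26 (0.123). Neither passed under any of the alternatives, and their 95% intervals ran from -0.30 to 0.02 and from -0.48 to 0.0026.

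Prkg1 encodes cGMP-dependent protein kinase I, through which cGMP relaxes smooth muscle. All 3 probes that could be tested were lower. The brightest, assigned to a cDNA clone at chr19:30631164-30631223, had signals of 11.53, 11.49, 11.77 and 11.74 in the wild type pools and 11.21, 10.82, 10.99 and 11.13 in the hypomorph pools, with no overlap. Its ratios were -0.32, -0.66, -0.78 and -0.61, a mean of -0.59 ± 0.20 (n = 4), 1.51-fold lower (limma, adjusted p = 0.00596). Replicate 1 had the smallest difference, and over the 22 alternatives the mean ranged from -0.69 to -0.38. The probe for the RefSeq transcript, 3.9 kb away, gave -0.33, -0.42, -0.39 and -0.53, a mean of -0.42 ± 0.08 (adjusted p = 0.00427). Its signals overlapped between the genotypes, since the pools differed in brightness from array to array. A clone probe 140 kb away gave -1.03, -0.43, -0.63 and -0.30, a mean of -0.60 ± 0.32 (0.0175), and missed the threshold without replicate 2 (0.0662) or replicate 3 (0.0685). Probe 4, 1173 kb away, was well above background in neither genotype and was not tested. Prkg1 lies on the same chromosome as Fgf8, its brightest probe 15.2 Mb from the Fgf8 probe. Of the tested probes on chromosome 19, 12.3% were lower, the same share as of the probes placed elsewhere.

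Arg1 had the largest difference of the 10 genes. It encodes the cytosolic arginase, known from liver and from macrophages. Its probe, at chr10:24605804-24605863, had signals of 10.17, 10.08, 9.89 and 10.09 in the wild type pools and 9.05, 8.94, 8.81 and 8.85 in the hypomorph pools. The groups were far apart. The ratios were -1.12, -1.13, -1.08 and -1.24, a mean of -1.14 ± 0.07 (n = 4), 2.21-fold lower (limma, adjusted p = 0.000699), with a 95% interval from -1.25 to -1.03. Only 24 of the 29950 tested probes had a mean ratio this low or lower, this probe included. Over the 22 alternatives the mean stayed between -1.29 and -1.02.

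Arg2 encodes the mitochondrial arginase, which many tissues outside the liver express. Its probe, at chr12:80070825-80070884, gave ratios of -0.23, -0.35, -0.22 and -0.30. The mean was -0.28 ± 0.06 (n = 4), 1.21-fold lower (limma, adjusted p = 0.0101), and -0.25 without replicate 2 (0.0638). The 4 arrays were close, while the signals of the genotypes overlapped, at 8.84 to 9.17 in the wild type and 8.51 to 8.87 in the hypomorph.

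Ass1, argininosuccinate synthase, was read by neighbouring probes, the brighter at chr2:31340768-31342407 as the files span it. The brighter gave -0.05, -0.18, -0.22 and -0.29, a mean of -0.18 ± 0.10 (limma, adjusted p = 0.0482), and the other -0.04, -0.10, -0.18 and -0.29, a mean of -0.15 ± 0.11 (0.0857). The first call sat at the threshold: it was kept under 9 of the 22 alternatives. It was lost without replicate 2, 3 or 4 (0.134 to 0.158), and with median centring the ratio turned to 0.09. Without replicate 1 the second probe passed (0.0405).

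Ddah1, at chr3:145790574-145790633, gave 0.24, 0.05, 0.09 and -0.16, a mean of 0.06 ± 0.17 (limma, adjusted p = 0.570), with a 95% interval from -0.11 to 0.22. It passed under none of the alternatives.

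**Figure D3:**
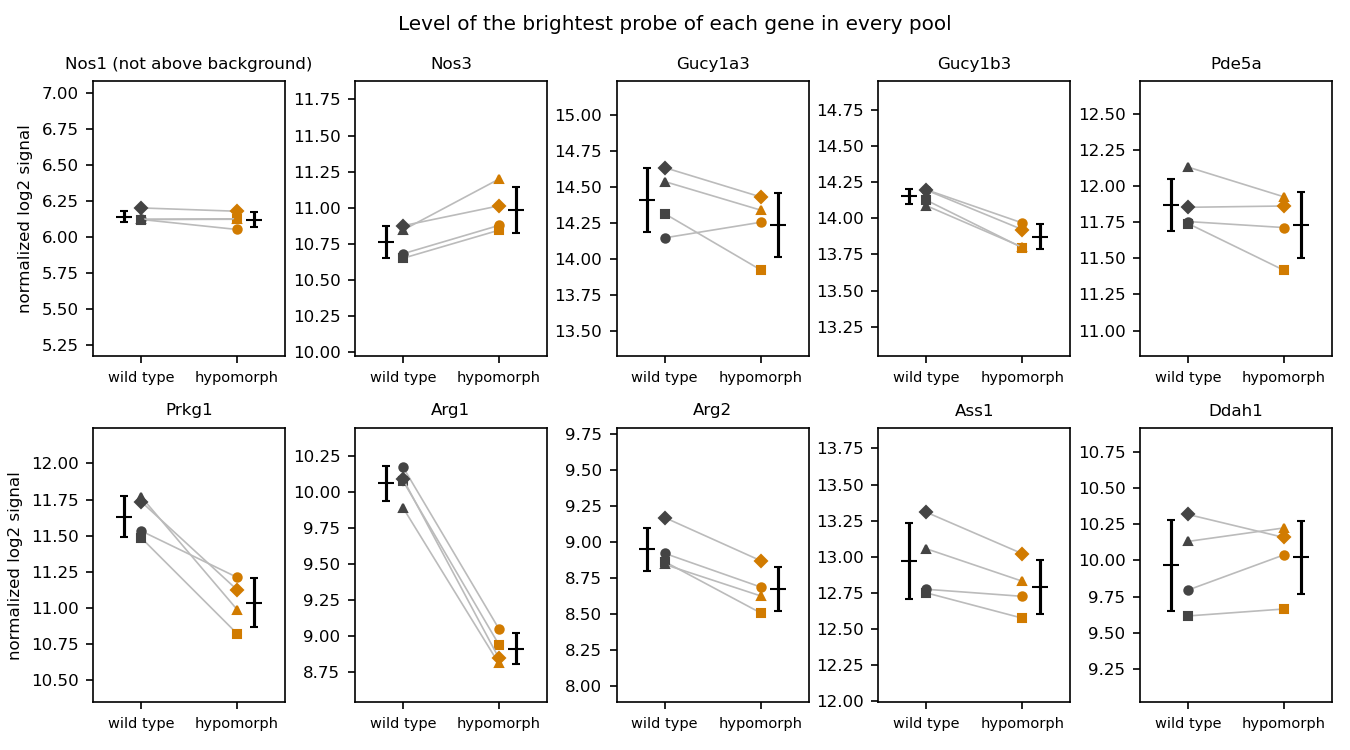
Normalized log2 signal of the brightest probe of each gene in the wild type and hypomorph pools, with the 2 pools of an array joined by a line and the mean ± SD beside them. Each panel spans the same log2 range, so slopes can be compared, while heights of different genes cannot. The Arg1, Prkg1 and Gucy1b3 pools separate completely by genotype, and Nos1 is not above background.

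**Figure D4:**
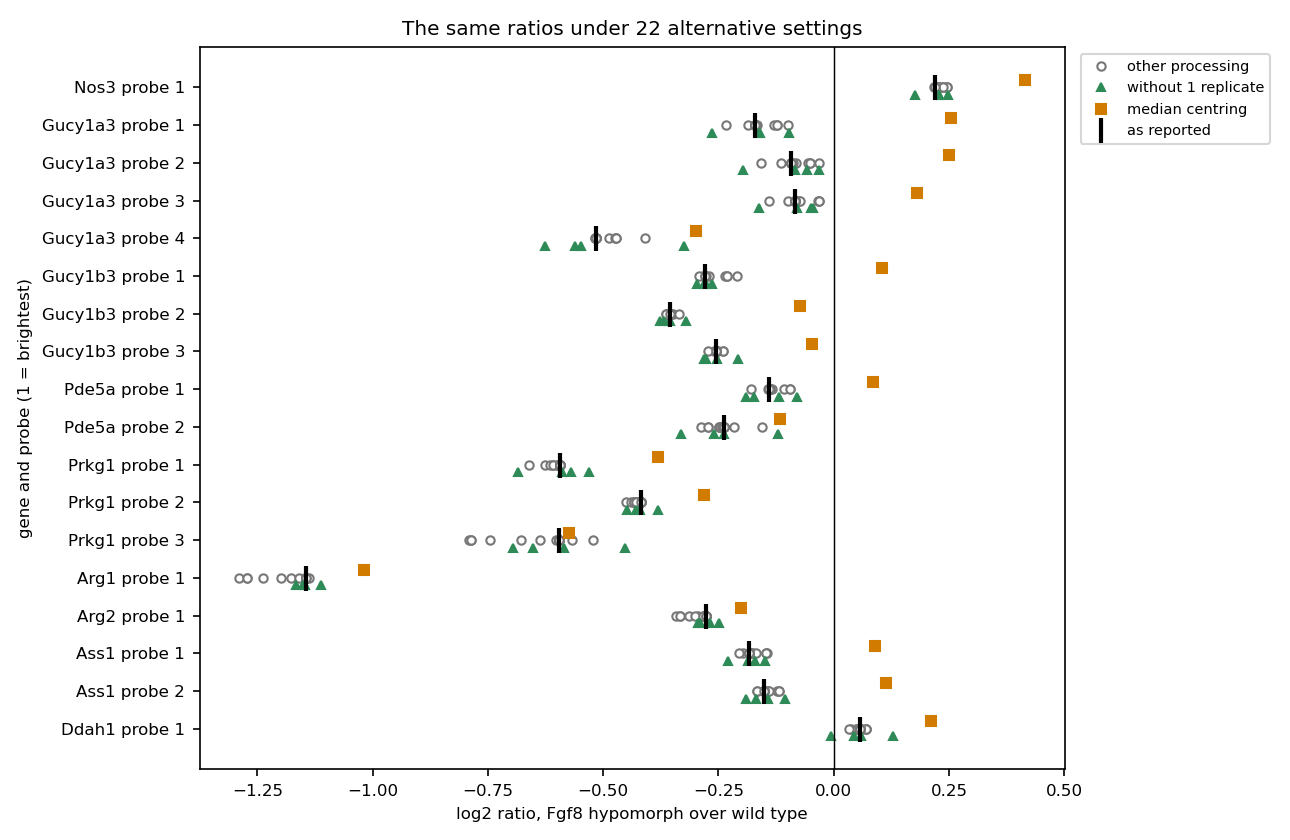
The mean log2 ratio of the 18 tested probes as reported (black tick), under other processing (open circles), without 1 replicate (triangles) and with median centring (squares). Arg1 and the Prkg1 probes stay below 0 throughout. Median centring moves Gucy1b3 probe 1 and Ass1 probe 1, at 0.10 and 0.09, and Gucy1a3 probes 1 to 3, Pde5a probe 1 and Ass1 probe 2, none of them called, to the other side of 0.

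The rest of the pathway was read from 7 lists, each gene from its brightest tested probe. Of 88 listed genes 70 were measured, 18 were higher (25.7%) and 13 lower (18.6%), against 13.6% and 13.0% of all genes, and their median ratio was 0.0068. The number of higher genes moved from 3 to 28 over the alternatives, with 3, 5 and 10 left without replicates 2, 3 and 4. The lower genes numbered 5, 6 and 8 without these replicates.

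Tetrahydrobiopterin is the cofactor without which the synthases do not couple properly. Of its 8 measured genes 6 were higher (limma, adjusted p under 0.05) and 0 were lower, also at an unadjusted p under 0.05, with a median of 0.25. Those higher included Pcbd1 at 0.36 ± 0.08 (limma, adjusted p = 0.00594), Qdpr at 0.31 ± 0.06 (0.00755) and Spr at 0.27 ± 0.08 (0.0131), which make or recycle the cofactor. Gch1, the first enzyme of the synthesis, was at 0.20 ± 0.15 and did not pass (adjusted p = 0.0637). Pcbd1 passed under all 22 alternatives. Without replicate 2 the number higher was 2, with Qdpr (0.0520) and Spr (0.0719) among those that missed, and without replicate 3 it was 3.

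Among 9 measured synthase regulators 4 were higher and 1 was lower, with a median of -0.03. They included Prmt1, which makes the methylated arginines that Ddah1 removes (0.27 ± 0.10), and the kinase Akt1, which phosphorylates Nos3 (0.15 ± 0.02). Nosip was lower on its brightest probe (-0.16 ± 0.05), while its other probe was at 0.31, and with median centring the brightest was at 0.13. Nos2, the inducible synthase, was at -0.08 ± 0.06 and did not pass. None of these calls was left without replicate 2 or without replicate 3 (adjusted p for the genes named between 0.0798 and 0.145), and 2 were left without replicate 4.

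Of 10 measured genes of arginine supply and use 2 were lower, the transporters Slc7a7 (-0.26 ± 0.07, and 0.11 with median centring) and Slc7a2 (-0.22 ± 0.08), with a median of 0.06. None was higher by limma's adjusted p, and 1 was at an unadjusted p under 0.05, while with median centring 3 were higher and 2 lower. Arginase also feeds ornithine into polyamine synthesis, where 3 of 10 measured genes were higher and 2 lower, with a median of 0.05. Spermidine synthase, Srm, was at 0.23 ± 0.05, and the antizyme Oaz2, with a value missing in replicate 3, at 0.32 ± 0.08 (n = 3). Paox, a polyamine oxidase, was at -0.22 ± 0.05, and at 0.08 with median centring. Spermine synthase, Sms, was lower on its brightest probe (-0.26 ± 0.16), while its other probes lay between -0.02 and 0.35 and median centring put the brightest at 0.15. Odc1, which turns ornithine into putrescine, was at 0.02 ± 0.17. With median centring 7 of the 10 polyamine genes were higher and 0 lower. Without replicate 2, none of the calls of either list was left, Oaz2 then having too few values to be tested. Without replicate 3, Oaz2 alone passed of the genes named, and without replicate 4, Slc7a2 (0.0672), Paox (0.0515) and Sms (0.0822) missed.

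Other guanylate cyclases and natriuretic peptides had 1 higher and 1 lower of 8 measured. The lower one was Npr3, the receptor that clears natriuretic peptides, at -0.75 ± 0.08, 1.69-fold lower (limma, adjusted p = 0.00116). Its other probes were at -0.72 and -0.62, and the brightest passed under all 22 alternatives. Npr1, a receptor that itself makes cGMP, was at 0.20 ± 0.09 (adjusted p = 0.0340). The list of other phosphodiesterases that act on cGMP also holds subunits that are not enzymes themselves, such as Pde6d, Pde6g and Pde6h. Of its 11 measured genes 2 were higher and 1 lower. The lower one, Pde3a, was at -0.33 ± 0.05 on its brightest probe and 0.05 on another. Median centring put the brightest at -0.15 (limma, adjusted p = 0.104). Pde2a was at 0.21 ± 0.06, its other probe at 0.03. Pde11a was well above background in no wild type pool and in 3 hypomorph pools, at least 1.11-fold higher, and turned to -0.02 with median centring. It was dim, at a mean log2 signal of 6.40, and passed the filter only through the hypomorph pools. Its call, counted among the higher genes here and in the pathway total, is therefore not independent of the filter. Npr1 missed without replicate 2 (0.111) or 3 (0.129), Pde2a without any 1 of replicates 2, 3 and 4 (0.0512 to 0.0946), and Pde11a without replicate 2 (0.128). With any other replicate left out, Pde11a did not pass the filter and was not tested.

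Among 14 measured cGMP effectors 6 were lower and 2 higher, with a median of -0.13. Prkg2, the second cGMP-dependent kinase, was at -0.78 ± 0.10, 1.72-fold lower (limma, adjusted p = 0.00135), with its other probe at -0.53. Trpc6, a calcium channel of vascular smooth muscle, was at -0.49 ± 0.05 (0.00203), and both passed under all 22 alternatives. Itpr1, the calcium release channel that the kinase restrains, was at -0.40 ± 0.12 and its other probe at -0.32, but with median centring the brightest was at -0.05 (adjusted p = 0.561). Rgs2, which damps contractile receptors, was higher on its brightest probe (0.82 ± 0.05) while another probe was at -0.05. Without replicate 2, 3 effectors were lower and Itpr1 missed (0.0509), and without replicate 2 or 3, Rgs2 was the 1 higher.

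**Figure D5:**
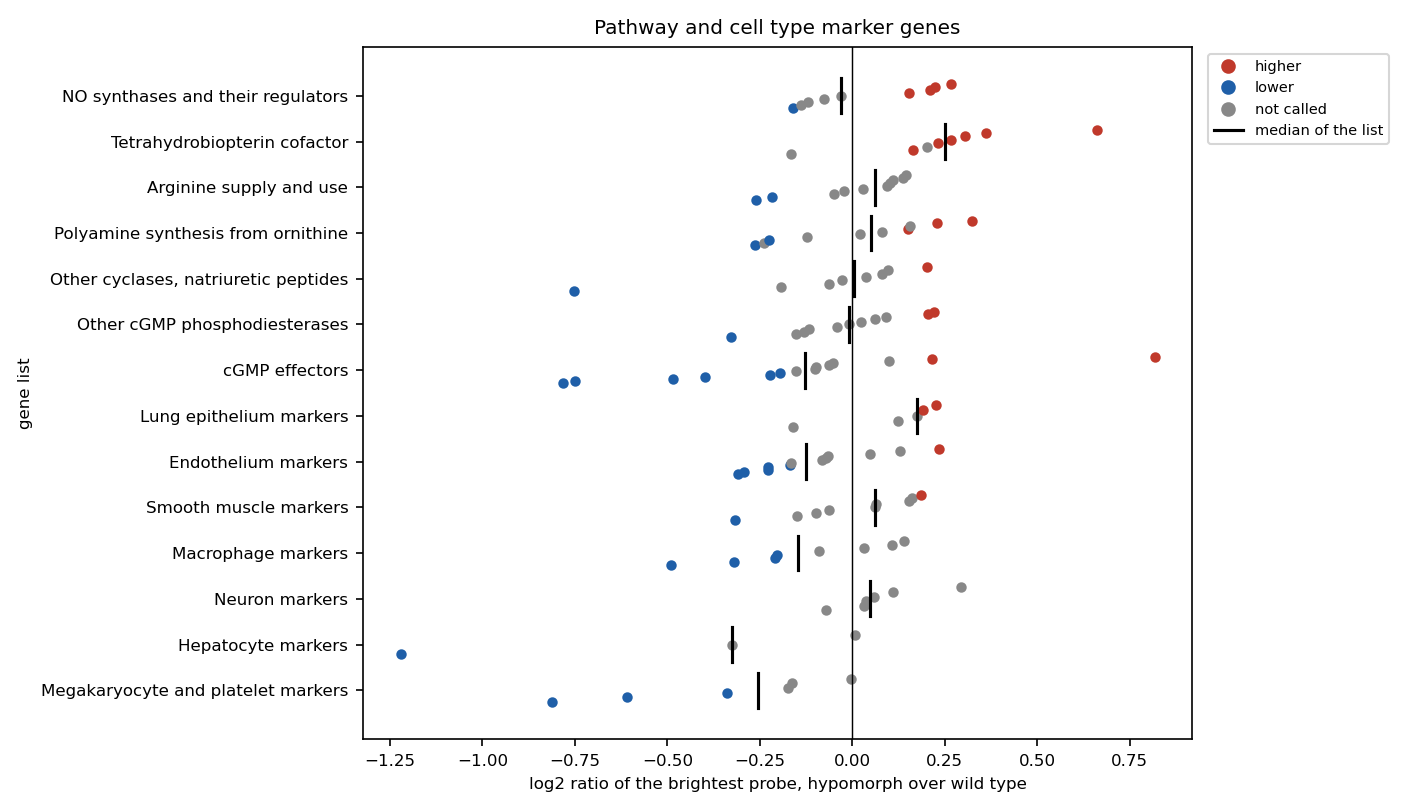
Log2 ratio of hypomorph over wild type for the measured genes of 7 pathway and 7 cell type marker lists, 1 point per gene read from its brightest probe, with a black tick at each list's median. The tetrahydrobiopterin genes lie mostly to the right at a median of 0.25, and the cGMP effectors have 6 genes lower. With median centring, 9 of the 12 endothelium markers were called higher and none lower.

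In whole lobes, fewer cells of a type and less RNA per cell cannot be told apart. Lung epithelium had 2 of 5 measured markers higher by limma's adjusted p, Nkx2-1 (0.19 ± 0.09) and Cdh1 (0.23 ± 0.09), and 0 lower, also at an unadjusted p under 0.05, with a median of 0.17. With median centring 4 were higher, and without replicate 2, 3 or 4 the number was 0, 0 and 1. Nkx2-1 and Cdh1 both missed without any 1 of these replicates (limma, adjusted p between 0.0582 and 0.137), so the 1 was another marker. Endothelium, which makes Nos3, had 1 of 12 markers higher and 5 lower, including Kdr (-0.29 ± 0.10) and Cldn5 (-0.31 ± 0.10). The list's median of -0.12 had the opposite sign to the Nos3 ratio. The marker called higher had the sign of Nos3 on its brightest probe (0.23 ± 0.10), while its other probe was at -0.22. It missed the threshold without any 1 of replicates 2, 3 and 4. With median centring Kdr, Cldn5 and Nos3 were all above 0, at 0.27, 0.29 and 0.42. Smooth muscle, where the cyclase and Prkg1 are known to act, had 1 of 9 markers higher, Myh11 (0.18 ± 0.04), and 1 lower, Tagln (-0.32 ± 0.05, other probe 0.12), with a median of 0.06 beside the Prkg1 ratio of -0.59. With median centring 5 of the 9 were higher and 1 lower, and Tagln was at 0.13. The mean signal over the 8 smooth muscle genes with values on every array was 11.55 to 12.02 in the wild type pools and 11.65 to 11.95 in the hypomorph pools.

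Macrophages and hepatocytes, both known sources of Arg1, were checked beside it. Of 8 macrophage markers 4 were lower and 0 higher by limma's adjusted p, or 4 and 1 at an unadjusted p under 0.05, with Marco at -0.49 ± 0.20, C1qa at -0.32 ± 0.03 and Cd14 at -0.20 ± 0.04, and a median of -0.15 against -1.14 for Arg1. The mean signal of the list was 11.14 to 11.29 in the wild type pools and 11.02 to 11.10 in the hypomorph pools. With median centring the list turned to 3 higher and 1 lower, with C1qa at -0.15 (adjusted p = 0.0794) and Cd14 at -0.05 (0.573), while Marco stayed lower at -0.27 (0.0130). Csf1r, Cd68 and Mrc1, also macrophage markers, were at -0.09, 0.14 and 0.03 and did not pass. Of 7 hepatocyte genes 3 were measured: Ahsg was lower (-1.22 ± 0.64), Apoa2 at -0.33 ± 0.56 and Alb at 0.01 ± 0.41, and Apoa1, Ttr, Fgb and Serpina1a were not measured. The mean over these 3 ranged from -0.97 to 0.09 across arrays, and the Arg1 ratio from -1.24 to -1.08. The 3 genes were dim, with mean log2 signals of 7.75 for Ahsg, 6.77 for Apoa2 and 8.63 for Alb, and the cause of their range was not tested. Platelets also carry the cyclase: 3 of 6 platelet markers were lower and 0 higher by limma's adjusted p, or 4 and 0 at an unadjusted p under 0.05, with Gp9 at -0.81 ± 0.27, Ppbp at -0.61 ± 0.28 and Itga2b at -0.34 ± 0.14. Neuron markers had 0 of 6 called by limma at an adjusted p under 0.05 and 1 at an unadjusted p under 0.05, with a median of 0.05 and Uchl1 closest at 0.29 ± 0.24 (adjusted p = 0.0625). The marker calls were fewer without replicate 2: 0 endothelium, 1 macrophage, 0 hepatocyte and 1 platelet marker lower, and 0 smooth muscle markers higher. Without replicate 3 they were 2 endothelium, 2 macrophage and 0 hepatocyte markers lower. Without replicate 4 they were 2 endothelium and 2 macrophage markers lower, and Myh11 missed without any 1 of replicates 2, 3 and 4 (0.0587 to 0.113). The part of any of these cell types in the members' ratios was not tested.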

How the data were processed

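Total RNA of pooled lungs was measured on 4 two-colour Agilent arrays. The replicates are separate pools, per the labels. Per the submitters' processing notes, the images went through Agilent Feature Extraction 9.5.1. Per the file headers, the deposited mean and background intensities are raw, and the processed intensities are background-subtracted and dye-normalized. The deposited log10 ratio is of processed red over green. The deposited series table holds log2 values that equalled log2 of processed red over green (correlation 1 on each array, column medians -0.02, -0.00, -0.05 and -0.02), so its scale, centring and direction are known.

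From the mean intensities, limma 3.58.1 (R 4.3.3) was run with normexp (offset 50) and loess within each array (span 0.3, controls at weight 0). Controls and outlier-marked spots were left out, saturated spots were kept, and spots of a probe were averaged. A probe was tested if 1 or both channels were well above background on at least 3 arrays, and its mean ratio was tested against 0 (lmFit, eBayes, Benjamini-Hochberg over 29950 probes). Signals of 1 genotype are channel values after loess and Aquantile. Where no pool of a genotype was above background, the fold is a bound against the lowest signal that was.

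The 10 genes, the lists and the rule for naming list genes (up to 4 called genes of a list with the smallest p, or up to 2 where none was called) were chosen with earlier results of these data known. Gch1, Nos2, Odc1, Csf1r, Cd68, Mrc1, Alb and Apoa2 are named beyond the rule, after their values were seen. One gene that the rule names is not reported here. Of 41174 probes, 24375 were renamed through RefSeq accessions of a GRCm38.p6 table. Probe positions are in mm8, and no annotation of that build was used, so exons and introns are not given. The limma test and its threshold were tried on simulated log ratios. The simulation did not cover background correction, loess, outlier marks, averaging of spots or the filter. The 22 alternatives changed the background correction, normalization, filter, outlier marks, variance model, pairing of channels, probe choice or replicates. Aquantile between arrays does not change the ratios, and the series table holds the processed signals again, so neither could give a new result.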

Additional observations from a re-analysis of the deposited data

Results flagged for a closer look

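Among 92 groups of 4 values tested, 2 held a value far from the other 3, and chance flags about 1 group in 20. The normalized log2 signal of Gucy1b3 probe 3 was 11.54 in the wild type pool of replicate 4, against 11.21 to 11.25 in the other wild type pools. The log2 ratio of the brightest Sms probe was -0.51 in replicate 1, against -0.21 to -0.16 on the other arrays.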

How the results depend on the processing

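Over the 18 tested probes, 387 alternative tests were run. Of these, 340 kept their side of the threshold, 39 lost a call, 6 gained a call, and 2 changed the sign of a called probe. The 340 include changes of sign where neither test was called, such as Gucy1a3 probes 1 to 3 with median centring. They also include the Aquantile tests, which repeat the reported ones. The tests on the series table repeat those on the processed signals. With median centring the median of all probes moved from -0.0045 to 0.10. Relative to that shift Gucy1b3 probe 1 lay at 0.0033, Ass1 probe 1 at -0.01, Prkg1 probe 1 at -0.48 and Arg1 at -1.12. Reversals under median centring were Gucy1b3 probe 1 (0.10), Ass1 probe 1 (0.09), Nosip (0.13), Slc7a7 (0.11), Sms (0.15), Paox (0.081), Pde11a (-0.020), Kdr (0.27), Esam (0.17), Cldn5 (0.29), Tagln (0.13) and Adgre1 (0.016), and the cause was not tested. It gave 10994 probes higher and 3794 lower over all, against 3804 and 3664, with 6 member probes lower and 28 pathway genes higher against 18. The processed signals, the same with loess, and the series table each gave 11 pathway genes higher.

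Each array pairs a wild type with a hypomorph pool. With the channels as separate samples and no replicate block, 0 member probes were higher and 4 lower (limma), with 644 and 834 over all and 3 and 7 pathway genes. Testing 1 probe per gene left 5 members lower, since fewer probes were read. Leaving out 1 array gave 0 to 1 member probes higher and 4 to 14 lower, 830 to 3723 and 787 to 3878 over all probes, and 3 to 17 and 5 to 14 pathway genes. The fewest calls came without replicate 2, with 4 member probes lower. With 4 pools a genotype and 1 dye orientation, probes near background such as Nos1 give no ratio of the transcript.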

Other observations

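Of the 4 tested probes that the files assign to cDNA clones and that belong to Gucy1a3, Pde5a or Prkg1, 3 had their lowest ratio in replicate 1, which was seen only after their values were examined. These were Gucy1a3 probe 4, Pde5a probe 2 and Prkg1 probe 3, at -1.09, -0.59 and -1.03. Each was brightest in replicate 2 in both genotypes, with wild type signals of 12.17, 10.07 and 8.87 and hypomorph signals of 11.79, 9.84 and 8.44. The other clone probe, Prkg1 probe 1, did the opposite: its ratio in replicate 1 was the closest to 0 of the 4, at -0.32, and it was dimmest in replicate 2, at 11.49 in the wild type and 10.82 in the hypomorph. No test was run on this pattern.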
